A study of Mus musculus with 19 samples.

Results

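The genes described here are Nlrc5 and 9 genes of the MHC class I presentation pathway, H2-K1, H2-D1, B2m, Tap1, Tap2, Tapbp, Psmb8, Psmb9 and Psmb10. They were taken by symbol from the Ensembl gene IDs, and all 10 were found among the 55487 genes of each table. RNA sequencing of mouse material gave 19 libraries in 4 groups. Spinal cords gave 9 libraries labelled miR-146a KO and 4 labelled miR-146a WT, and the labels give no allele, strain, age or sex for these mice. Motor neurons made from the wild-type embryonic stem cell line RW.4 with retinoic acid and the Smoothened agonist SAG gave 3 libraries after miR-146a LNA and 3 after control LNA. An LNA is a chemically locked oligonucleotide that binds and blocks a microRNA, here transfected at 10 nM for 72 h. All cultures came from 1 line. The labels do not state that replicates are different mice or different dishes, and p-values therefore reflect library-to-library spread, which may be technical.

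MHC class I molecules display short peptides from the inside of a cell to CD8 T cells and natural killer cells. The immunoproteasome subunits Psmb8, Psmb9 and Psmb10 cut proteins into such peptides, the Tap1 and Tap2 transporter carries them into the endoplasmic reticulum, and tapasin (Tapbp) helps to load them onto a heavy chain (H2-K1 or H2-D1) paired with beta-2 microglobulin (B2m). Nlrc5 is a transactivator that acts at class I promoters through DNA-binding partners of the RFX, CREB and NF-Y families. In the resting nervous system class I is generally low and is raised by interferons, and miR-146a is known as a brake on NF-kB signalling.

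On GRCm38, 7 of the 10 genes lie within 1.352 Mb of chromosome 17, in the H2 region. From one end to the other these are Tapbp (chr17:33915899-33929292, + strand), H2-K1 (chr17:33996017-34000347, − strand), Psmb9 (chr17:34181987-34187764, − strand), Tap1 (chr17:34187553-34197225, + strand), Psmb8 (chr17:34197721-34201454, + strand), Tap2 (chr17:34203527-34216321, + strand) and H2-D1 (chr17:35262730-35267499, + strand). Psmb9 and Tap1 point away from each other and overlap by 212 bp, with RefSeq starts 226 bp apart, and Psmb8 begins 495 bp after the end of Tap1. Nlrc5 (chr8:94434356-94527272, + strand), Psmb10 (chr8:105935735-105938444, − strand) and B2m (chr2:122147686-122153083, + strand) lie elsewhere. The strand setting of the counting is not given in the sources used here. Reads of B2m and of Patl2, annotated over the whole of it on the other strand, may therefore not be told apart, and the same holds for Psmb10 and Gm16156, Psmb9 and Tap1, Tap2 or Psmb8 and Gm20496, and Nlrc5 and 9330175E14Rik. Tapbp shares 3422 bp with Zbtb22 on its own strand. H2-K1, H2-D1 and the H2-Q and H2-T genes are similar in sequence, so reads shared by several of them were lost to unique alignment and their levels are uncertain to that extent.

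The promoters of H2-K1, H2-D1 and B2m are shown because either heavy chain pairs with B2m and the levels of all 3 moved together across cords. Each window is 120 bases from RefSeq (GRCm38.p6), read toward the gene, and ends upstream of the RefSeq start. The H2-D1 window nevertheless lies inside the span given for H2-D1 above, because the annotation used for counting starts further upstream. Capitals mark, on either strand, matches to AANTGAAA (the core of an interferon element) and to GGGA and CC separated by any 4 bases (an NF-kB type of site), and then TGACG (core of the X2 box, bound by CREB and ATF factors) with ATTGG (the Y box, bound by NF-Y).
H2-K1, chr17:34000359-34000478, − strand: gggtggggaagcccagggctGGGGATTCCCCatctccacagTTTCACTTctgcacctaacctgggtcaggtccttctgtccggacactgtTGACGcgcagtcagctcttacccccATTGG
H2-D1, chr17:35262903-35263022, + strand: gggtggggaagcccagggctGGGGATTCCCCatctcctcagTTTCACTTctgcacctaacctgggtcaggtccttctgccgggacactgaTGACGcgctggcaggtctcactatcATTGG
B2m, chr2:122147519-122147638, + strand: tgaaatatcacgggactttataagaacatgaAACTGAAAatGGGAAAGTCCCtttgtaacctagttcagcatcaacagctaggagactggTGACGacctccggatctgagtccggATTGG
The H2-K1 and H2-D1 windows were identical at 109 of 120 positions without gaps, and those of H2-K1 and B2m at 47 of 120. All 3 carry TGACG and ATTGG separated by exactly 20 bases. That arrangement was found, on either strand, in the 300-base promoters of 27 of 27025 genes (0.0999%), in 3 of the 8 genes described here that have an entry, and in H2-M3, 1 of 11 other H2 class I heavy chain genes with one. The spacing was chosen after the sequences had been read. AANTGAAA was found in 7.54% of genes and the NF-kB type of site in 22.9%, and among the 8 genes both were found only in H2-K1, H2-D1 and B2m. TGACG alone was found in 23% of genes and in 5 of the 8, and ATTGG alone in 41.1% and in 6 of the 8. A further interferon-linked element, TTCNNNGAA (the GAS site bound by STAT factors), was found in 9.55% of genes and, of the 8, in Psmb8. The entries looked for but not found were those of Nlrc5 and Tap2. A match describes letters and not a bound site.

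The microRNA removed or blocked in these samples, miR-146a-5p (RefSeq, chr11:43374435-43374456, − strand), is shown with its seed, bases 2 to 8, in capitals. Beside it are the stretches of 22 bases in annotated 3' UTRs (GENCODE M21, GRCm38) that match the whole seed, with the match AGTTCTC in capitals.
miR-146a-5p: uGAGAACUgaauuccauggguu
Nlrc5, chr8:94506826-94506847: gtgttcagaagcccAGTTCTCt
H2-K1, chr17:33996393-33996414: catccagagccctcAGTTCTCt
H2-D1, chr17:35266928-35266949: catccagagccctcAGTTCTCt
Tapbp, chr17:33928141-33928162: agtcacagtaaagaAGTTCTCg
The stretches of H2-K1 and H2-D1 are identical. A seed match was present in at least 1 annotated coding transcript of 4 of the 10 genes and of 2499 of 20999 protein-coding genes (11.9%), and Irak1 (2 matches) and Traf6 (4 matches), known miR-146a targets, were among these. The match lay in 1 of 4 annotated transcripts with a 3' UTR for Nlrc5, 4 of 6 for H2-K1, 1 of 3 for H2-D1 and 2 of 2 for Tapbp. None of the 4 has an A facing base 1 of the microRNA. In B2m, Tap1, Tap2, Psmb8, Psmb9 and Psmb10 these letters were not in the annotated 3' UTRs. Whether any of these stretches is bound was not measured.

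Cord libraries held 28163289 to 39577247 counts and culture libraries 40647549 to 65471742. The miR-146a gene itself, Mir146, gave 1 count in all 9 knockout cords and 0 in the 4 wild-type cords, where 0 allows up to 0.0221 CPM, so it cannot check the genotype labels. Pttg1, a securin gene that separated the other cords by genotype, read 13 normalised CPM (deposited counts scaled to library size with TMM factors) in the library labelled knockout replicate 9. It read 1.06 to 1.81 in the other 8 knockout cords and 14.9 to 17.4 in the wild-type cords, so that library goes against its label there. Knockout replicate 7 carried RNA of skeletal muscle and connective tissue, with Acta1 at 2564 normalised CPM against at most 6.03 in any other cord. Both were kept under their labels, and results are also given without them. Of the marker lists, motor neuron genes summed to 2937 to 3194 CPM in the cultures and 198 to 418 CPM in the cords.

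In the knockout cords 9 of the 10 genes were higher on average than in wild-type cords, and Psmb10 was not. The median log2 fold change over the 10 was 0.95, against 0.02 over all 22174 genes tested. Nlrc5 (log2 1.38) and Psmb9 (1.31) had the highest values, H2-K1, B2m, Psmb8, Tap1 and H2-D1 lay between 0.85 and 1.05, and Tapbp (0.42) and Tap2 (0.35) were lower. By edgeR's quasi-likelihood test with Benjamini-Hochberg adjustment over all genes none of the 10 was called, in a comparison that called 0 genes (0.0%), with adjusted p from 0.292 to 0.887. At an unadjusted p below 0.05, 8 of the 10 were higher, against 7.53% of all genes. DESeq2, which called 289 genes higher (1.22%), called Nlrc5 and Psmb9, and limma with voom quality weights, which called 3 genes (0.0135%), called neither.

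The plot of the 10 genes by cord gives every library.

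**Figure D1:**
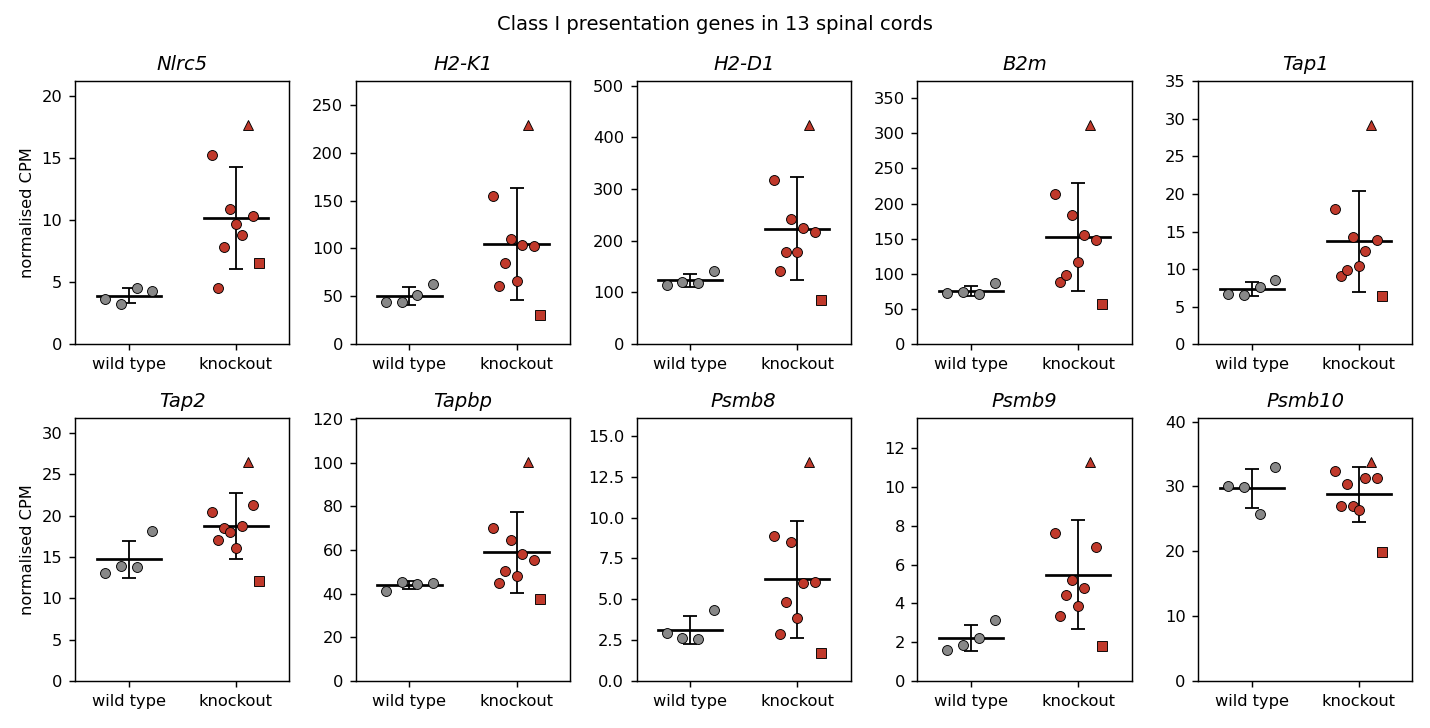
Normalised CPM (vertical axis, linear, from 0) of each gene in 4 wild-type (grey) and 9 knockout (red) cords; horizontal lines are means and bars SD. The triangle is knockout replicate 7, the highest of 13 for all 10 genes, and the square is the library labelled knockout replicate 9, below every wild-type cord for 8 of them.

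Nlrc5 read 3.67, 3.21, 4.50 and 4.32 normalised CPM in wild-type replicates 1 to 4. In the 9 knockout cords its lowest, median and highest values were 4.50, 9.67 and 17.7. Only knockout replicate 2 fell within the wild-type range, and the library labelled knockout replicate 9, at 6.57, lay above it. At least 8 knockout cords lay above every wild-type cord in 3.11% of all genes, at least 7 in 7.21%, at least 6 in 11.9% and at least 5 in 18.3%. By edgeR the log2 fold change, 1.38 (SE 0.31), had an unadjusted p of 0.000511 and an adjusted p of 0.292, and by DESeq2 the adjusted p was 0.00117. An exact two-sided permutation test over the 715 splits of the 13 cords gave p = 0.0028, where the smallest possible is 0.0014, and 0.353 after adjustment over all genes. Without knockout 7 and 9 the fold change was 1.31, and over the leave-outs of single libraries it stayed between 1.25 and 1.47.

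The class I chains are the abundant part of the pathway. B2m read 72.2, 73.6, 71.4 and 86.7 normalised CPM in wild-type cords and 57.7, 148 and 312 (lowest, median, highest) in knockout cords. The lowest of these was the library labelled knockout replicate 9, and the other 8 lay above every wild-type cord. H2-D1, a classical heavy chain, read 114, 120, 119 and 142 in wild-type cords and 86.3, 217 and 424 in knockout cords, again with 8 of 9 above every wild-type cord. H2-K1, the other classical heavy chain, read 43.7, 43.6, 51.4 and 63.2 in wild-type cords and 30.8, 102 and 229 in knockout cords, with 7 of 9 above. Their log2 fold changes were 1.01 (SE 0.37) for B2m, 0.85 (SE 0.33) for H2-D1 and 1.05 (SE 0.42) for H2-K1, with adjusted p = 0.295, 0.305 and 0.313 by edgeR. Per length, B2m stood at 1.36 times the summed TPM (the deposited level corrected for gene length) of both heavy chains in the median wild-type cord and 1.47 times in the median knockout cord, with overlapping ranges. H2-D1 over H2-K1 was 2.80 and 2.48.

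Of the transport and loading genes, Tap1 differed most. It read 6.71, 6.50, 7.55 and 8.53 normalised CPM in wild-type cords and 6.47, 12.4 and 29.2 in knockout cords, with 8 of 9 above every wild-type cord (log2 0.91, SE 0.33, adjusted p = 0.294 by edgeR). Tap2, its partner in the transporter, read 13.1, 13.9, 13.8 and 18.1 against 12.0, 18.5 and 26.5, and wild-type replicate 4 lay among the knockout cords (log2 0.35, SE 0.16, adjusted p = 0.336 by edgeR). Tapbp read 41.1, 45.4, 44.6 and 44.7 against 37.7, 55.4 and 100.5, with 7 of 9 above (log2 0.42, SE 0.21, adjusted p = 0.366 by edgeR).

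The immunoproteasome subunits did not move alike. Psmb9, which takes the place of Psmb6, read 1.58, 1.87, 2.23 and 3.15 normalised CPM in wild-type cords and 1.80, 4.81 and 11.3 in knockout cords. All knockout cords but the library labelled replicate 9 lay above the wild-type range (log2 1.31, SE 0.39, adjusted p = 0.292 by edgeR and 0.0265 by DESeq2). Psmb8, which takes the place of Psmb5, read 2.95, 2.61, 2.58 and 4.35 against 1.70, 6.0 and 13.4, with 6 of 9 above (log2 1.00, SE 0.44, adjusted p = 0.335 by edgeR). Psmb10, which takes the place of Psmb7, read 30.1, 30.0, 25.8 and 33.0 against 19.9, 30.3 and 33.8, so the groups overlapped almost wholly. Its log2 fold change was −0.04 (SE 0.11, adjusted p = 0.887 by edgeR), and it was 0.01 without the library labelled knockout replicate 9 or without wild-type replicate 4.

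In TPM, Psmb8 and Psmb9 were minor against the constitutive subunits that they replace, and Psmb10 was not. TPM depends on the annotated exonic length, which is 3381 bases for Psmb8, 3660 for Psmb9 and 1705 for Psmb10. Reads of Psmb10 may also not be told apart from those of Gm16156. Psmb8 ran from 1.38% to 2.36% of the TPM of Psmb5 in the wild type (median 1.64%) and from 1.5% to 8.59% in the knockout (median 3.67%). Psmb9 stood at 0.843% to 1.55% of Psmb6 in wild-type cords and 1.23% to 6.98% in knockout cords (medians 1.06% and 2.54%), with 8 of 9 knockout cords above the wild-type range. Psmb10 stood at 103% to 120% of Psmb7 in wild-type cords and 99.3% to 147% in knockout cords (medians 112% and 129%). Here both genes had like TPM values, and 6 of 9 knockout cords lay above the wild-type range, as for Psmb8 over Psmb5. The constitutive subunits themselves had log2 fold changes of −0.22 (Psmb5), −0.15 (Psmb6) and −0.20 (Psmb7), each at an unadjusted p below 0.05 and none called, against 6.8% of genes lower at that level. That count of 3 was 2 with library size scaling and 2 without knockout 7 and 9.

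**Figure D2:**
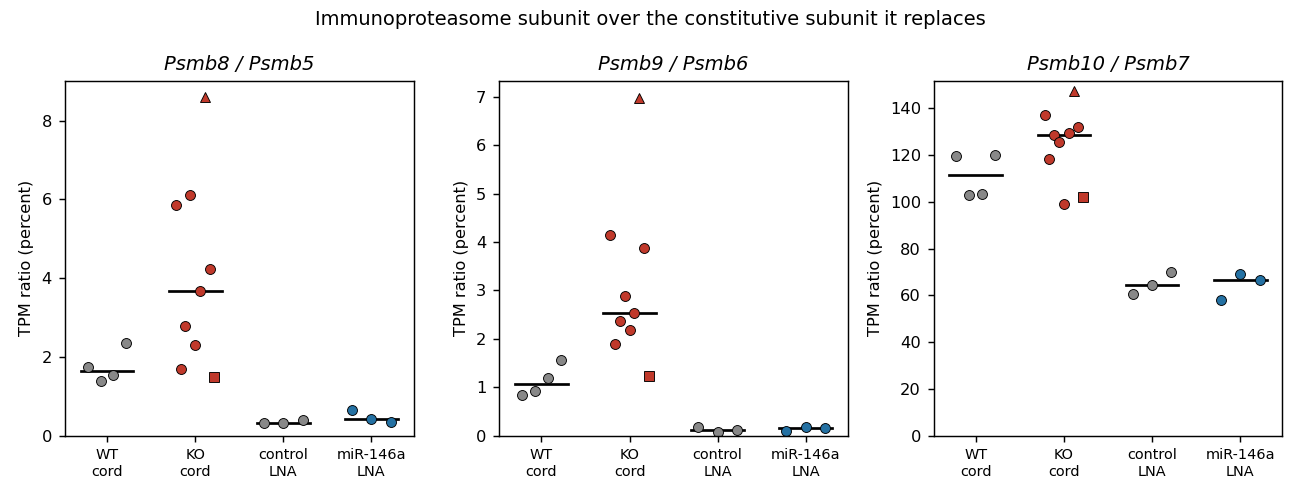
TPM of each immunoproteasome subunit as a percentage of the constitutive subunit it replaces (vertical axes, linear, from 0) by library; lines are medians, the triangle is knockout replicate 7 and the square the library labelled knockout replicate 9. The cord medians are 1.64% and 3.67% for Psmb8 over Psmb5, and the lowest cord value of Psmb10 over Psmb7 is 99.3%.

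The map of all cords shows how the libraries ranked. Knockout replicate 7 was the highest of 13 for all 10 genes and knockout replicate 1 the second highest for 8. Knockout replicates 1, 3, 6 and 8 each had 9 genes above every wild-type cord, replicate 4 had 8, replicate 5 had 7 and replicate 2 had 4. In the library labelled knockout replicate 9, Nlrc5 was the 1 gene above every wild-type cord, at 1.67 times the wild-type mean, and 8 genes were below every wild-type cord. H2-K1 stood there at 0.611, B2m at 0.759, H2-D1 at 0.698 and Psmb8 at 0.545 times the wild-type mean. Across the 9 knockout cords the highest value was 7.89 times the lowest for Psmb8, 5.41 times for B2m and 1.70 times for Psmb10, against 1.69, 1.21 and 1.28 times in the 4 wild-type cords.

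**Figure D3:**
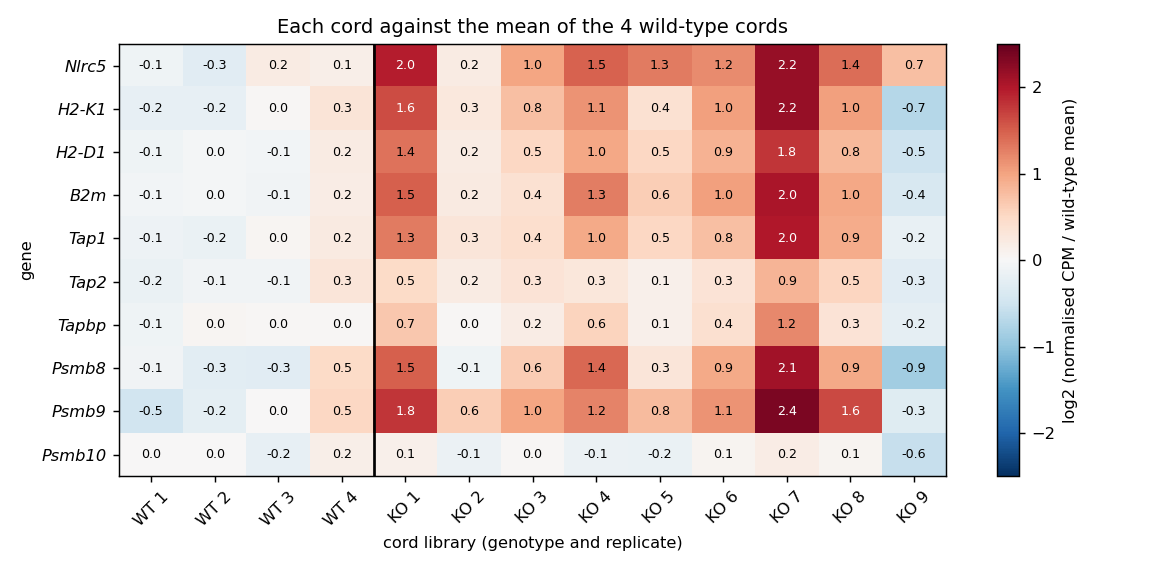
Log2 of normalised CPM over the wild-type mean for each gene (rows) in each cord (columns; WT, wild type; KO, knockout, by replicate). The column of knockout 7 reaches 2.35 at Psmb9, that of the library labelled knockout 9 is below 0 except at Nlrc5 (0.74), and the row of Psmb10 is near 0 elsewhere.

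Without both of these libraries, 9 genes were higher at an unadjusted p below 0.05 by edgeR, where 8.94% of genes were, and the median log2 fold change was 0.86. Without wild-type replicate 1, 2 or 3, taken singly, that count was 4 (B2m, Nlrc5, Psmb9 and Tap1), where 5.23%, 4.76% and 5.16% of genes were. These 4 were below 0.05 before adjustment under each leave-out of 1 library. None of the 10 was called by edgeR in any leave-out.

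The genes varied together from cord to cord. Over the 13 cords the median Pearson correlation of log2 normalised CPM was 0.95 among the 36 pairs of the 9 genes other than Psmb10, with a range of 0.75 to 0.99. Psmb10 had a median of 0.57 with the other 9. With the genotypes centred separately the 36 pairs had a median of 0.94 and Psmb10 a median of 0.83. These points share the same 13 libraries and their dissection, and knockout replicates 7 and 9 lie at the ends. Without those libraries the medians were 0.94 and 0.27.

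By the same measure, the 5 genes most like Nlrc5 over the 13 cords were Ifi207 (an interferon-inducible gene, r = 0.97), Ccl12 and Ccl2 (chemokines, 0.96 each), C4a (a complement component, 0.96) and Fcgr2b (an Fc receptor, 0.95). Ccl2 was at 1.29 normalised CPM in knockout and 0.0235 in wild-type cords on average, and Fcgr2b at 19.2 and 3.09. Most like the mean of the 10 genes were Irf1 (an interferon-induced transcription factor that acts at class I promoters, r = 0.98), Gbp9 (a guanylate-binding protein, 0.98), Ezr (ezrin, a membrane linker, 0.98), H2-Q4 and H2-T23 (non-classical class I heavy chains, 0.98 each). Irf1 averaged 10.1 normalised CPM in knockout and 5.63 in wild-type cords. None of these 10 genes was called by edgeR. The order depended on the libraries and on the genotypes. Without knockout 7 and 9 the 5 genes ranked 4 (Ifi207), 10 (Ccl12), 21 (Ccl2), 19 (C4a) and 22 (Fcgr2b) in likeness to Nlrc5, and with the genotypes centred separately 2, 5, 70, 6 and 17. For the mean of the 10, Irf1, Gbp9, Ezr, H2-Q4 and H2-T23 ranked 3, 5, 9, 1 and 8 without those libraries and 1, 3, 4, 5 and 6 with the genotypes centred.

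The rest of the pathway was read from lists of genes. Of 12 tested H2 class I heavy chain genes other than H2-K1 and H2-D1, 11 had a positive fold change and 7 were higher at an unadjusted p below 0.05, against 7.53% of all genes, with a median log2 of 0.61. H2-Q1 (1.08, SE 0.33), H2-Q4 (1.21, SE 0.41) and H2-T23 (0.76, SE 0.26) had the smallest p. Of 8 other trimming and loading genes 3 were higher at that level (7.53% of all genes), Erap1 (0.35) and Lnpep (0.26), which trim peptides, and Tapbpl (0.26), a relative of tapasin. None of the abundant folding helpers Calr (0.01), Canx (−0.03), Pdia3 (0.14) and Hspa5 (0.04) was. All 11 other subunits of the 20S core had a negative fold change (median −0.10), 4 of them at an unadjusted p below 0.05 (6.8% of all genes), and that count was 1 with library size scaling and 0 without knockout 7 and 9.

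Among 14 genes of interferon signalling, 13 had a positive fold change (median 0.21) and 5 were higher at an unadjusted p below 0.05, against 7.53% of all genes. These were Irf8 (1.67, SE 0.47, adjusted p = 0.292 by edgeR and 0.0258 by DESeq2), Irf1 (0.85), Irf9 (0.67), Ifngr1 (0.53) and Ifnar2 (0.51). Ifng, the gene of interferon gamma, had 0 counts in all 13 cords, which allows up to 0.0094 CPM over the knockout and 0.0221 CPM over the wild-type cords. Of 7 listed interferon ligand genes, Ifnl2, Ifnl3 and Ifna4 were also at 0 in cords, and none passed the filter. The 7 summed to 0 to 0.639 CPM in knockout and 0.0631 to 0.123 CPM in wild-type cords. The highest sum was in the library labelled knockout replicate 9. Of 8 promoter-binding partners of Nlrc5, 3 had a positive fold change, or 4 with the other scalings, and the median was −0.05. Nfya, an NF-Y subunit, was the 1 partner higher at an unadjusted p below 0.05 (0.36, SE 0.14, adjusted p = 0.297 by edgeR). Nlrc5 thus had a log2 fold change of 1.38 where its partners ranged from −0.14 (Nfyc) to 0.36. Of 13 genes on a list of receptors for class I and other immune receptors, 6 passed the filter on low counts. All 6 had positive values, as did 53.1% of all genes tested. The 13 summed to 1.38 to 2.68 CPM in wild-type and 2.02 to 48.6 CPM in knockout cords. Genes this low can pass the filter through the knockout cords alone, so their shared sign is not separate support. Among the 6 were Pirb (2.97, SE 1.03) and Cd8a (1.53, SE 0.62), which bind class I. Lilrb4a (3.48, SE 0.94) and Cd244a (3.76, SE 1.41), found on myeloid and killer cells, are not established receptors for class I. None of the 6 was called by edgeR, and DESeq2, which called 1.22% of genes higher, called Lilrb4a and Pirb.

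Markers of several cell types other than neurons were also higher on average in the knockout cords, none of them called by edgeR. In bulk cord, more cells of a type and more RNA per cell cannot be told apart. Microglial markers summed to 294 to 898 CPM (median 436) in knockout and 321 to 370 CPM in wild-type cords, with all 8 positive and 4 at an unadjusted p below 0.05 (7.53% of all genes). Csf1r, the receptor that microglia depend on, was at 102 to 430 and 107 to 127 normalised CPM. P2ry12, a marker of resting microglia, was at 11.2 to 21.4 and 11.6 to 16.4. Markers of neutrophils and monocytes summed to 7.72 to 99.2 and 10.1 to 10.9 CPM (8 of 8 positive), T cell markers to 3.72 to 8.41 and 2.71 to 5.37 CPM (5 of 6 tested positive) and endothelial markers to 221 to 447 and 234 to 306 CPM (5 of 6). Red blood cell markers summed to 38.1 to 672 and 22.8 to 44.6 CPM (6 of 6), astrocyte markers to 4789 to 10445 and 4564 to 6053 CPM (5 of 6) and B cell markers to 1.69 to 8.74 and 1.48 to 2.17 CPM (2 of 2 tested). Of all genes tested in cords, 53.1% had a positive fold change. DESeq2, which called 1.22% of genes higher, called the B cell gene Cd79b and all 6 red blood cell markers higher. Their part in the class I result was not tested. In the library labelled knockout replicate 9, microglial (362 CPM), T cell (4.51 CPM) and red blood cell markers (38.1 CPM) summed to values within the wild-type range. Astrocyte markers (7387 CPM), neutrophil and monocyte markers (13.5 CPM) and B cell markers (2.88 CPM) lay above that range there. Endothelial markers (221 CPM) lay below it. This is 1 library, which went against its label at Pttg1, and no link between these sums and the 10 genes was tested.

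In motor neuron cultures all 10 genes were higher on average after miR-146a LNA than after control LNA, and B2m was the 1 that rose by the test. The median log2 fold change of the 10 was 0.27, against 0.01 over all 19099 genes tested. edgeR with Benjamini-Hochberg adjustment called 458 genes higher (2.4%) and 1177 lower (6.16%). With library size scaling the lower share of calls was 52.9% in place of 72.0%, and B2m, H2-D1 and Tapbp were called, where 3.88% of genes were called higher. At an unadjusted p below 0.05, 5 of the 10 were higher (B2m, Psmb10, Tapbp, H2-K1 and H2-D1), against 9.81% of all genes.

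B2m read 42.8, 48.9 and 48.3 normalised CPM after control LNA and 67.0, 55.9 and 76.4 after miR-146a LNA, with no overlap. It rose by a log2 of 0.51 (SE 0.10, adjusted p = 0.00521 by edgeR). It was called in every leave-out of 1 culture, with adjusted p between 0.000173 and 0.028, and also by DESeq2 (4.65% of genes called higher) and limma (3.9%). Per length, B2m over both heavy chains stood at 1.51 to 1.78 times in control and 1.75 to 2.54 times in miR-146a LNA cultures.

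H2-K1 read 9.05, 9.47 and 9.21 normalised CPM after control LNA and 11.3, 11.8 and 10.7 after miR-146a LNA (log2 0.29, SE 0.11, adjusted p = 0.117 by edgeR). H2-D1 read 77.2, 73.8 and 80.3 against 95.5, 85.5 and 80.8 (log2 0.18, SE 0.07, adjusted p = 0.111 by edgeR), and was called by limma and also without miR-146a LNA replicate 3, where 3.45% of genes were called higher. Tapbp read 20.3, 22.3 and 22.5 against 25.4, 25.5 and 25.1 (log2 0.23, SE 0.08, adjusted p = 0.0908 by edgeR). Psmb10 read 20.2, 22.4 and 23.2 against 23.7, 26.2 and 26.4 (log2 0.22, SE 0.09, adjusted p = 0.134 by edgeR). In these 4 genes the treated cultures lay above every control, as they also did in B2m and Psmb8 and in 12.8% of all genes.

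Tap1 (log2 0.17), Tap2 (0.26), Psmb8 (0.56), Psmb9 (0.40) and Nlrc5 (0.62) were not called, with adjusted p from 0.297 to 0.608 by edgeR. Nlrc5 was low there, with 33, 23 and 2 counts after control LNA and 13, 51 and 29 after miR-146a LNA, and the spread within each group was wide (SE 0.62). Its fold change ran from 0.11 to 1.18 as single cultures were left out. The 4 genes with a seed match, Nlrc5, H2-K1, H2-D1 and Tapbp, had log2 fold changes of 0.62, 0.29, 0.18 and 0.23. None of these 4 was called by edgeR with TMM scaling over all 6 cultures. With library size scaling H2-D1 and Tapbp were called (3.88% of genes called higher). Whether the seed matches bear on these values was not tested.

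**Figure D4:**
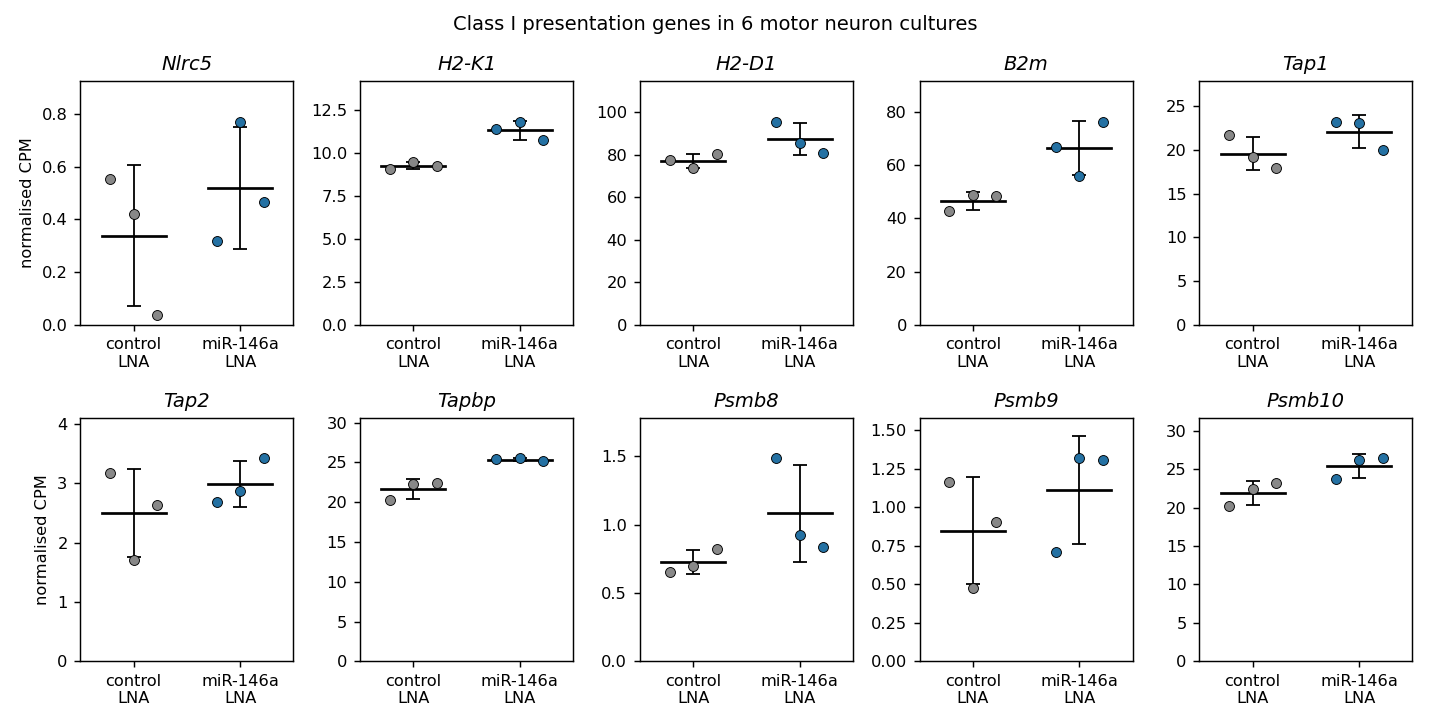
Normalised CPM (vertical axis, linear, from 0) of each gene in 3 control LNA (grey) and 3 miR-146a LNA (blue) motor neuron cultures; lines are means and bars SD. B2m is at 42.8 to 48.9 in controls and 55.9 to 76.4 after miR-146a LNA, while the Nlrc5 points overlap at under 1 CPM.

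The constitutive proteasome subunits had negative fold changes in cords and positive ones in cultures. In cultures Psmb6 (log2 0.18) and Psmb7 (0.23) rose with adjusted p = 0.0228 and 0.0212 by edgeR, and Psmb5 had 0.18 (adjusted p = 0.0981). All 11 other 20S subunits were positive and 6 of them were called, against 2.4% of all genes, Psma1, Psma2, Psma6, Psma7, Psmb1 and Psmb3. With library size scaling 10 were called, against 3.88%. Psma6 and Psmb1 were called in every leave-out of 1 culture, and Psma1 in all but that of control replicate 2 (adjusted p = 0.0594 by edgeR). Psmb6, Psmb7, Psma2 and Psmb3 were not called when control replicate 1, 2 or 3 or miR-146a LNA replicate 1 was left out, with the highest adjusted p at 0.122, 0.0984, 0.170 and 0.0895 by edgeR. Psma7 was not called when any 1 control was left out (highest 0.0866). Psmb8 accordingly stood at 0.325% to 0.408% of Psmb5 in control and 0.339% to 0.645% in miR-146a LNA cultures, Psmb9 at 0.0677% to 0.171% and 0.0887% to 0.172% of Psmb6, and Psmb10 at 60.4% to 70.2% and 58.0% to 69.1% of Psmb7. Of the other H2 heavy chains 7 of 10 tested were positive and none was called by edgeR, while limma called H2-Q6 (log2 2.08, SE 0.73 and adjusted p = 0.0910 by edgeR, 0.0303 by limma). Lnpep (−0.24, adjusted p = 0.0394) and Jak2 (−0.20, adjusted p = 0.0487), a kinase of interferon receptors, fell by edgeR, but Jak2 was not called with either other scaling and Lnpep not with library size scaling. Neither was called when control replicate 1 or 2 or miR-146a LNA replicate 1 was left out, nor Jak2 without control replicate 3 or Lnpep without miR-146a LNA replicate 3 (highest adjusted p = 0.195 for Jak2 and 0.209 for Lnpep by edgeR). Microglial and lymphoid genes were nearly absent, with Siglech, Cd3d, Cd2, Ncr1, Nkg7, Gzma and Prf1 at 0 counts in all 6 cultures, and P2ry12 at 4 counts in all. Lck, a kinase on the T cell list, was called higher there by edgeR (adjusted p = 0.0376), but not when any 1 culture other than miR-146a LNA replicate 3 was left out (highest 0.193).

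Whether the genes responded differently in the 2 materials was tested as an interaction over all 19 libraries. It called 423 of 24152 genes (1.75%) and none of the 10, and none reached an unadjusted p of 0.05 by edgeR, which 8.68% of genes did with a positive and 5.52% with a negative value. The cord effect minus the culture effect was 0.77 (SE 0.70) for Nlrc5, 0.52 (SE 0.54) for B2m, 0.75 (SE 0.46) for Tap1 and −0.23 (SE 0.18) for Psmb10. These errors leave room for differences larger than the effects in the cultures. For Psmb5, Psmb6 and Psmb7 it was −0.37, −0.31 and −0.41, with adjusted p = 0.240, 0.149 and 0.0682 by edgeR. The Psmb7 value was called by DESeq2 (adjusted p = 0.0246, 1.51% of genes called lower), by limma (0.0189, 1.01%) and by edgeR without knockout 7 and 9 (0.0232, 1.05%). Psmb6 was called by limma (0.0226) and without knockout 7 and 9 (0.0353), and Psmb5 under none of these. Such calls were not limited to Psmb6 and Psmb7. Psma7 (−0.36) was also called by DESeq2 (0.0119), by limma (0.0181) and by edgeR without knockout 7 and 9 (0.0274). Psmb1 (−0.36) had 0.0270, 0.0213 and 0.0201 there, and Lnpep, with a positive value (0.53), 0.0334, 0.0168 and 0.00588. By edgeR over all 19 libraries Psma7, Psmb1 and Lnpep had adjusted p = 0.0603, 0.0896 and 0.0888. Psma1 and Psma2 were called under none of these. Without knockout 7 and 9, Tap1 (unadjusted p = 0.0165) and H2-D1 (0.0315) were below 0.05, as were 11.1% of genes with a positive value, and none of the 10 was called.

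**Figure D5:**
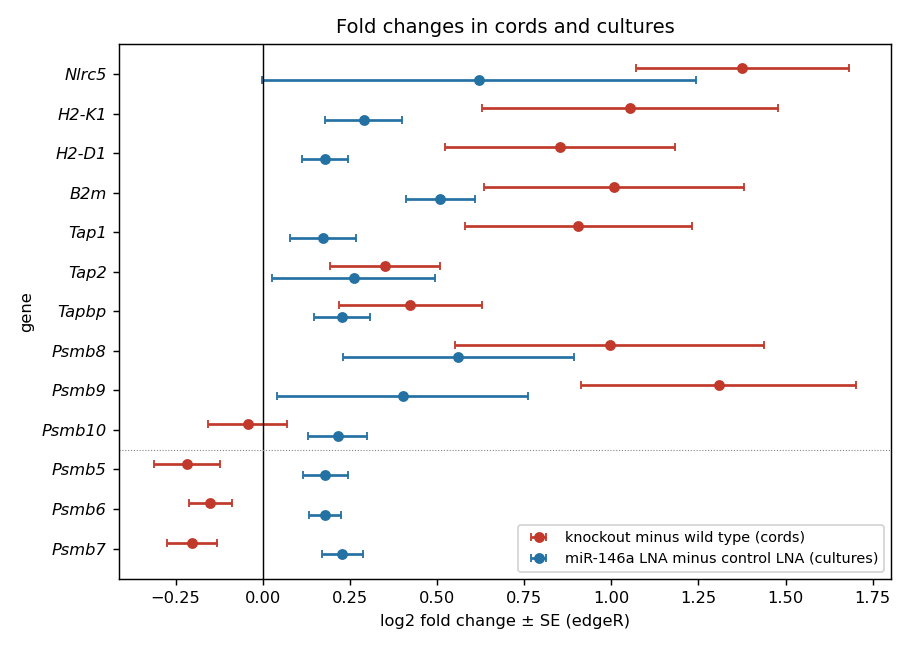
Log2 fold change (horizontal axis) with its SE from edgeR for the 10 genes and the 3 constitutive proteasome subunits, in cords (red, knockout minus wild type) and cultures (blue, miR-146a LNA minus control LNA). The cord values reach 1.38 at Nlrc5 with wide errors, B2m at 0.51 is the 1 culture call among the 10, and Psmb5, Psmb6 and Psmb7 lie below 0 in cords and above 0 in cultures.

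The pathway also had a different make-up in the 2 materials. Per length, wild-type cords held on average 271 TPM of B2m, 147 of H2-D1, 53.5 of Psmb10, 52.7 of H2-K1, 37.2 of Tapbp, 11.9 of Tap2, 4.11 of Tap1, 2.83 of Psmb8, 1.84 of Psmb9 and 1.42 of Nlrc5. The ranges of Psmb10 and H2-K1 overlapped, and so did those of each neighbouring pair from Tap1 down to Nlrc5. Control cultures held 206 TPM of B2m, 113 of H2-D1, 48.8 of Psmb10, 22.7 of Tapbp, 13.6 of Tap1, 11.9 of H2-K1, 2.51 of Tap2, 0.877 of Psmb9, 0.814 of Psmb8 and 0.151 of Nlrc5. Among neighbours in this order, only the ranges of Psmb9 and Psmb8 overlapped. Nlrc5 was thus 9.40 times higher in wild-type cords than in control cultures, Tap2 4.75 times, H2-K1 4.41 times and Psmb8 3.47 times, each with no overlap. Control cultures held few Nlrc5 counts, with 2 in control LNA replicate 3, so its ratio is imprecise. Tap1 went the other way, 3.31 times higher in the cultures with no overlap, although it shares its start region with Psmb9, which was 2.10 times higher in cords. B2m and H2-D1 differed by 1.32 and 1.30 times and Psmb10 by 1.1 times, the last with overlapping ranges. Cord and culture libraries differ in cell composition and preparation, which cannot be told apart from the material.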

How the data were processed

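The 19 gene tables list 55487 genes each. The authors aligned reads with STAR 2.7.9a1 to Ensembl release 101 (GRCm38) and counted unique, unambiguous reads with featureCounts, per the submitters' design and processing notes. The deposited count column holds raw counts and was used for every test. The authors' CPM column holds the same counts scaled to library size, and their deposited FPKM column adds a length correction; neither entered a result. Deposited TPM values served only to compare levels between genes or materials. Strand setting and duplicate handling: not given in the sources used here.

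Symbols came from GENCODE M21 (55141 genes, 99.38%), which gave the same start and end for 99.42% of matched genes. Sequences came from RefSeq (GRCm38.p6) and GENCODE M21. Counts were fitted with edgeR 4.0.16 in R 4.3.3 (default filter on low counts, TMM scaling, robust quasi-likelihood test), separately for cords and cultures, with Benjamini-Hochberg adjustment over all genes and a threshold of 0.05. The interaction was fitted over all 19 libraries. The code was tested on simulated data. Correlations used log2 CPM with a prior count of 2. Total counts were 28163289 to 39577247 in cords and 40647549 to 65471742 in cultures, so 3 counts in 1 library are 0.0758 to 0.107 CPM and 0.0458 to 0.0738 CPM. Floors cover counting error only. Replicates were compared by chi-square and none looked like 1 library deposited again (smallest chi-square per degree of freedom 6.03 over 48 pairs).

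Cord replicates are numbered by accession, as names only. The alternatives were DESeq2 1.42.0, limma 3.58.1, other scalings and filters, leave-outs, a replicate block in cultures and permutation. The 10 genes, the lists of pathway genes and markers, and the leave-out of knockout 7 and 9 were chosen with earlier results of these data known. Named genes are the 10, up to 3 tested genes per pathway list with the smallest p, the 5 most like Nlrc5 and the 5 most like the mean of the 10, and the highest, lowest and absent markers. Genes named beyond that were chosen after their values were seen.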

Additional observations from a re-analysis of the deposited data

Results flagged for a closer look

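In 20 sets of values (10 genes in the knockout cords and in the wild-type cords), the gap between the most extreme library and its nearest neighbour was compared with the group's range by Dixon's criterion, which chance alone passes in about 1 in 20 sets. It was passed by 3. Wild-type replicate 4 was the highest of 4 for B2m, at 86.7 normalised CPM, and for Tap2, at 18.1. Knockout replicate 7 was the highest of 9 for Tap1, at 29.2.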

How the results depend on the processing

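In cords edgeR called 0 genes, 3177 having an unadjusted p below 0.05. DESeq2 called 348 genes, or 406 without outlier handling, and 2 of the 10 class I genes under both. limma called 3 genes and none of the 10. Leaving out 1 cord gave 0 to 2 calls (1 without knockout 2, 2 without knockout 7 or knockout 9), and leaving out knockout 7 and 9 together gave 8. Psmb10 in cords ran from −0.11 to 0.0117 as 1 cord was left out, and was above 0 (0.0117 and 0.0058) only without the library labelled knockout replicate 9 and without wild-type replicate 4. In cultures 1635 genes were called, and 778 to 1985 with 1 culture left out (778 without control LNA replicate 2, 1059 without control LNA replicate 1). Of the 10 genes 3 were called with library size scaling, 2 by limma, and 1 to 2 with 1 culture left out. A replicate block in the cultures called 1793 genes and of the 10 again B2m. Same-numbered cultures did not deviate together (correlations 0.0098, −0.050 and 0.0057), so the numbers were not taken as pairs. No paired analysis was possible in cords because their labels carry no replicate numbers. The 1 CPM filter left out Nlrc5 and Psmb8 in cultures. Counts were lowest for Nlrc5, Psmb8 and Psmb9 in the cultures, at 2 to 87 a library, which limits the precision there.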
